A study of Mus musculus with 32 samples.

Results

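The apelin receptor gene Aplnr and the gene of its peptide ligand apelin, Apln, were followed through 32 whole mouse bladders, as 2 of the 32285 genes in the table of read counts. Aplnr was chosen from these data, because its level dropped late in life, after little difference between youth and middle age, and Apln was taken with it as its ligand. The values that chose Aplnr are therefore given for the untreated ages as a description, with no test. Apln was tested in every comparison. Aplnr was tested only between groups of old bladders, although the untreated old bladders also took part in its choice.

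Apelin is a small secreted peptide, cut from a longer precursor, that binds a receptor of the G protein-coupled family on endothelial cells and some other cells. In blood vessels the ligand is known as a product of sprouting (tip) endothelial cells and of cells short of oxygen, the receptor as a mark of venous and capillary endothelium, and the pair as a signal for vessel growth, nitric oxide release and vessel tone. A second peptide, encoded by Apela (also called Elabela or Toddler), binds the same receptor.

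The bladders came from female C57BL/6 mice with no genetic change named in the labels. Young mice were 2 months old (n = 6), middle-aged mice 10 months (n = 5) and untreated old mice 26 months (n = 6). A further 3 groups of old mice were gavaged on 3 days of each month between 21 and 26 months of age. They received water (n = 5), the vehicle of 60% Phosal, 30% PEG400 and 10% ethanol (n = 4), or dasatinib at 5 mg/kg with quercetin at 50 mg/kg per day in that vehicle (D + Q, n = 6), a drug pair used to remove senescent cells. Each library was made from total RNA of a whole bladder, so that fewer endothelial cells and less transcript per cell cannot be told apart. Gene counts added up to 15088372 in the shallowest and 52650259 in the deepest library. Levels are given as CPM, a gene's counts scaled to a common library total with trimmed mean of M values (TMM) factors. Where genes are set beside each other, TPM is given, which also divides by gene length. A value of 3 counts, taken as the detection floor for counting error only, equalled 0.0570 to 0.199 CPM. The labels name no sequencing batch. The tissue label was checked with 11 urothelial markers, whose summed level lay between 5537 and 7273 CPM in every bladder.

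Aplnr (ENSMUSG00000044338) lies on the plus strand of chromosome 2 of mm10, at 85136225 to 85139923. In its main transcript the 3699 bases form a single exon, of which 1131 bases are coding. Apln (ENSMUSG00000037010) lies on the minus strand of chromosome X, at 48025146 to 48034853, with 3 exons that add up to 3149 bases. No other annotated gene overlaps either of them. Apela (ENSMUSG00000079042) lies on the minus strand of chromosome 8, at 65028417 to 65037336, and overlaps Gm45886, a processed transcript of the same strand that has no row of its own in the count table. The coding sequence of Apln is shown because it carries the active peptide at its very end. It is split over 2 coding exons between 48028302 and 48034505 (chromosome X, minus strand, mm10), has 77 codons before the stop, and ends in the 13 codons of apelin-13, the shortest of the well-studied active forms, printed in capitals. The codons before it, in lower case, encode the signal peptide and the part that is cut away or stays attached in longer forms.
Apln, coding sequence without the stop codon: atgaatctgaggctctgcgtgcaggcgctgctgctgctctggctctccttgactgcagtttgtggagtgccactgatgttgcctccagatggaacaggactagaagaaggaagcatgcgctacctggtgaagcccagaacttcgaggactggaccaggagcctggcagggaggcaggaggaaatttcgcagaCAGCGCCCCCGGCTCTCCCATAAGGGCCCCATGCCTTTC

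Aplnr was high in the young and middle-aged bladders and low in all 4 groups of old bladders. The young bladders had 15.2, 11.0, 8.61, 9.50, 12.6 and 10.8 CPM in replicates 1 to 6. The middle-aged bladders had 10.6, 9.79, 9.94, 11.4 and 12.4 CPM. The 2 younger groups overlapped, with means of 11.3 ± 2.36 (SD, n = 6) and 10.8 ± 1.09 CPM (SD, n = 5). The untreated old bladders had 4.21, 3.96, 3.67, 6.76, 5.38 and 4.47 CPM, a mean of 4.74 ± 1.15 CPM (SD, n = 6), or 0.437 times the middle-aged mean. No old bladder of any group reached the lowest of the 11 younger ones, since the 21 old bladders lay between 2.61 and 6.76 CPM (median 4.21) and the younger ones between 8.61 and 15.2 CPM (median 10.8). Behind these values stood 127 to 431 counts in the young, 308 to 450 in the middle-aged and 115 to 239 in the untreated old bladders. Of the 15054 genes with a mean of at least 1 CPM, 67 (0.445%) were lower in all 21 old bladders than in all 11 younger ones. Nothing is read from this share for Aplnr, since it was chosen for the same contrast. The fitted log2 difference in level was -1.17 (standard error 0.14) for untreated old minus middle-aged and -0.08 (standard error 0.13) for middle-aged minus young bladders. For untreated old minus young bladders it was -1.25 (standard error 0.17).

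**Figure D1:**
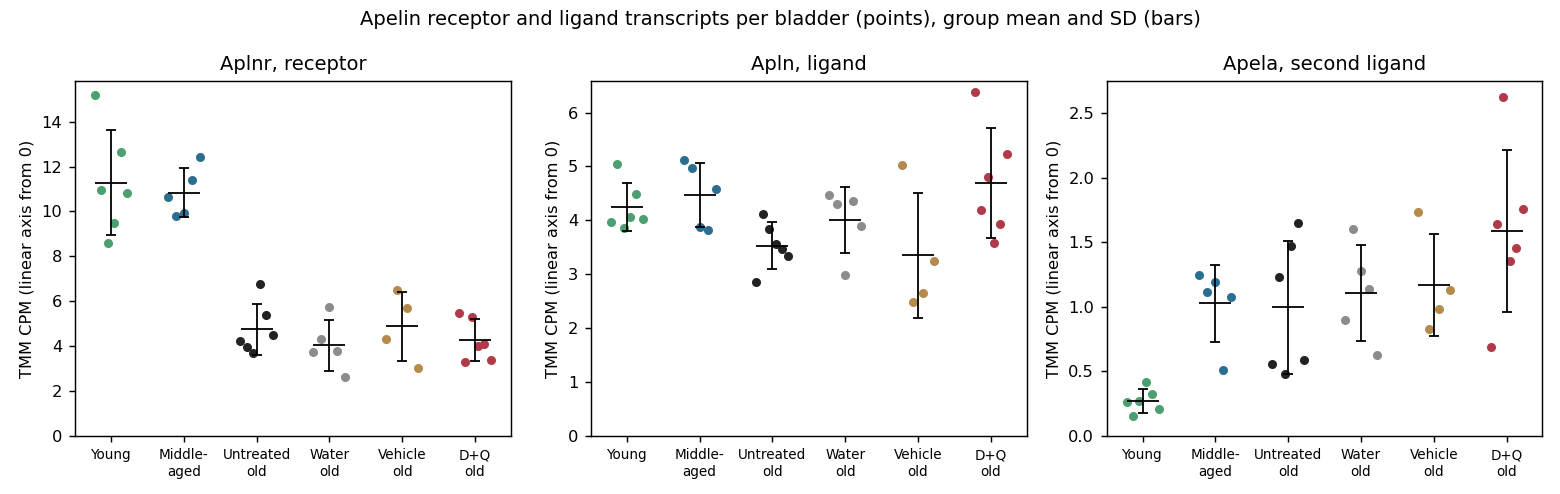
TMM CPM (linear axis from 0) of Aplnr, Apln and Apela in each of the 32 bladders by group, with the group mean (wide bar) and SD (capped line). All 21 old bladders lie below all 11 young and middle-aged bladders for Aplnr, the groups overlap for Apln, and the 6 young bladders lie below all others for Apela.

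Aplnr in the gavaged groups was not told apart from its level in untreated old bladders. Water-treated old bladders had 3.73, 4.32, 5.73, 3.77 and 2.61 CPM, and vehicle-treated old bladders had 4.32, 6.50, 5.68 and 3.01 CPM. D + Q-treated old bladders had 5.47, 3.28, 5.29, 3.99, 4.10 and 3.38 CPM. All 3 groups overlapped the untreated old group, and their means were 0.372, 0.450 and 0.392 times the middle-aged mean. With D + Q, Aplnr had a log2 fold change of -0.16 relative to untreated old age, with a 95% interval from -0.53 to 0.21 (edgeR, adjusted p = 0.692). Against untreated old bladders, the log2 fold change was -0.25 (95% interval -0.68 to 0.19, edgeR adjusted p = 0.583) after water and 0.04 (-0.46 to 0.53, adjusted p = 0.972) after vehicle. D + Q against vehicle gave -0.20 (-0.68 to 0.29, edgeR adjusted p = 0.994), D + Q against water 0.08 (-0.35 to 0.51, adjusted p = 0.951), and vehicle against water 0.28 (-0.29 to 0.86, adjusted p = 0.9999). The sign of the vehicle against untreated and D + Q against water values turned when single bladders were left out.

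When the 15 gavaged were set against the 6 untreated old bladders, Aplnr differed by -0.14 on the log2(CPM + 0.1) scale (two-sided exact permutation test, p = 0.438, adjusted p = 0.626 over 20 tests of Aplnr and Apln levels). In edgeR, 173 of 17250 genes (1%) passed between water-treated and untreated old bladders, and 37 without water replicate 1, while 2760 had an unadjusted p under 0.05 and DESeq2 called 703. In the other 5 comparisons among old bladders no gene passed (0%), of 17440 genes tested for vehicle against untreated, 17037 for D + Q against untreated, 17267 for D + Q against vehicle, 17161 for D + Q against water and 17294 for vehicle against water. At an unadjusted p under 0.05 these held 1464, 2200, 722, 1342 and 322 genes, and DESeq2 called 132, 185, 11, 69 and 0. Neither Aplnr nor Apln was among the calls of either tool in these comparisons.

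Apln was more even. The young bladders had 3.97, 5.03, 3.86, 4.06, 4.49 and 4.02 CPM, and the middle-aged bladders 5.11, 4.96, 3.88, 3.82 and 4.58 CPM. The untreated old bladders had 2.85, 4.12, 3.83, 3.57, 3.47 and 3.33 CPM. Their mean of 3.53 ± 0.436 CPM (SD, n = 6) compares with 4.47 ± 0.600 CPM (SD, n = 5) at middle age and 4.24 ± 0.444 CPM (SD, n = 6) in youth, and the groups overlap. The log2 fold change from middle-aged to untreated old bladders was -0.32 (standard error 0.11), which missed the threshold in edgeR (adjusted p = 0.0608), where 4110 of 17156 genes (24.0%) passed. It passed without middle-aged replicate 4 (-0.38, edgeR adjusted p = 0.0340), without untreated old replicate 2 (-0.37, adjusted p = 0.0383) and in DESeq2 (-0.31, adjusted p = 0.0430). From young to untreated old bladders it was -0.27 (standard error 0.11, edgeR adjusted p = 0.0920), in a comparison where 25.1% of 16873 genes passed. From young to middle-aged bladders it was 0.06 (standard error 0.12, adjusted p = 0.802). The exact permutation tests gave p = 0.0216 for untreated old against middle-aged and p = 0.0173 against young bladders, each with an adjusted p of 0.144.

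In D + Q-treated old bladders Apln was at 6.37, 4.19, 4.81, 3.57, 3.93 and 5.23 CPM, a mean of 4.68 ± 1.02 CPM (SD, n = 6) that lay above the untreated old mean. Of these, 4 exceeded the highest untreated old bladder, and the other 2 fell within the untreated old range. The log2 fold change was 0.41 (95% interval 0.11 to 0.71) with an unadjusted p of 0.0108, which did not pass over all genes (edgeR adjusted p = 0.307). The exact permutation test gave p = 0.0173 (adjusted p = 0.144). Without D + Q replicate 1, the highest bladder, the log2 fold change was 0.30 (edgeR adjusted p = 0.219). Against the vehicle group, whose bladders were at 5.02, 2.49, 2.65 and 3.24 CPM, it was 0.49 (95% interval 0.00213 to 0.980, edgeR adjusted p = 0.994). Against the water group, at 4.47, 4.30, 2.98, 4.36 and 3.89 CPM, it was 0.24 (-0.11 to 0.59, adjusted p = 0.753). Water and vehicle differed from untreated old bladders by 0.17 (-0.11 to 0.45, adjusted p = 0.553) and -0.08 (-0.51 to 0.34, adjusted p = 0.918), and vehicle from water by -0.25 (-0.75 to 0.24, adjusted p = 0.9999). The 15 gavaged bladders together differed from the untreated old ones by 0.18 on the log2(CPM + 0.1) scale (exact permutation p = 0.269, adjusted p = 0.535). Against middle-aged bladders the gavaged groups differed by -0.16 (water), -0.45 (vehicle) and 0.05 (D + Q) on that scale, with exact permutation p-values of 0.262, 0.0952 and 0.749, and adjusted p-values of 0.535, 0.381 and 0.788.

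**Figure D2:**
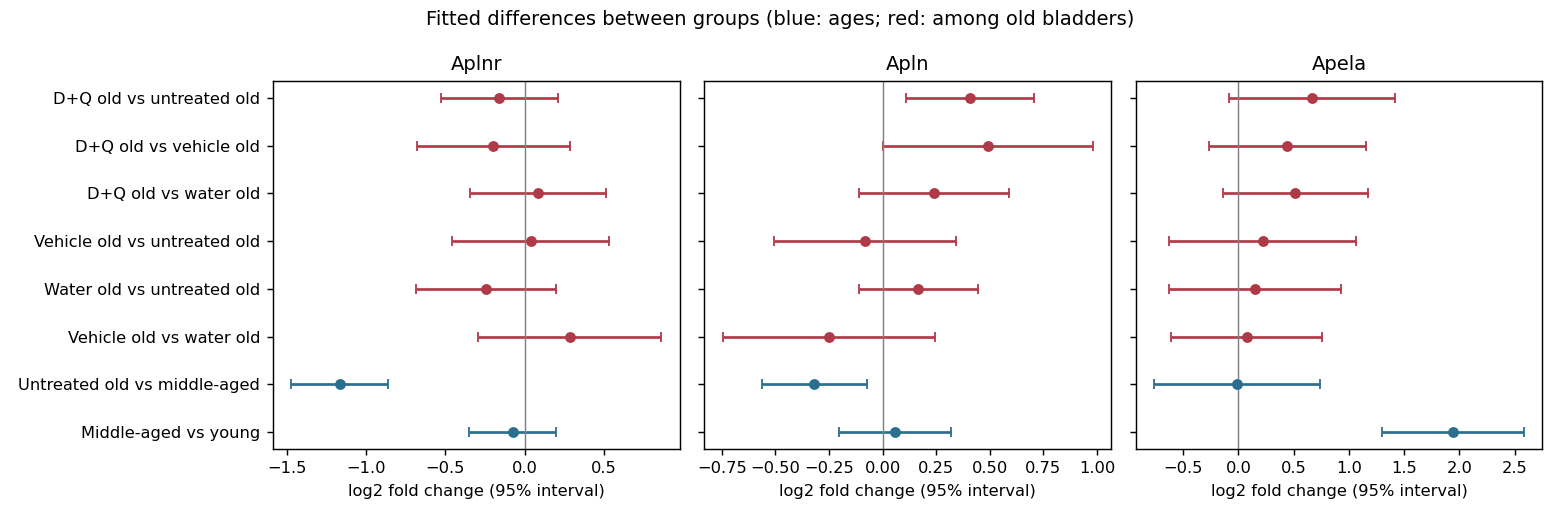
Fitted log2 fold change (point) and 95% interval (line) of Aplnr, Apln and Apela in 8 comparisons, with differences between ages in blue and differences among old bladders in red. All intervals of Aplnr among old bladders include 0, those of Apln for D + Q against untreated and against vehicle do not, and the intervals are not adjusted over genes. Aplnr was chosen for its difference between the untreated ages, so its blue intervals are no test.

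Receptor and ligand transcripts were set beside each other per length. On this scale the young bladders held 10.7 ± 2.33 TPM (SD, n = 6) of Aplnr and 4.74 ± 0.579 TPM of Apln. Untreated old bladders held 4.42 ± 1.08 TPM of Aplnr and 3.87 ± 0.576 TPM of Apln (SD, n = 6). The ratio of receptor to ligand TPM was above 1 in all 11 younger bladders, at 1.68 to 3.25. Among the old bladders it was above 1 in 4 of 6 untreated, 1 of 5 water-treated, 2 of 4 vehicle-treated and 0 of 6 D + Q-treated bladders, with group medians of 1.20, 0.736, 1.31 and 0.809. This ratio was computed after the values were seen, and it was not tested. Aplnr, its numerator, was chosen for its late fall, so nothing is read from the difference in ratio between younger and old bladders.

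Apela followed another course than its receptor and rose before middle age. The young bladders had 0.260, 0.152, 0.271, 0.418, 0.323 and 0.208 CPM, from 4 to 11 counts each. The middle-aged bladders had 1.24, 1.11, 1.19, 0.509 and 1.08 CPM, from 18 to 43 counts, and all lay above all young ones. The rise was 1.94 on the log2 scale (standard error 0.30, edgeR adjusted p = 0.00264), in a comparison where 1811 of 16754 genes (10.8%) passed, a number that was 728 without middle-aged replicate 5 and 2794 without young replicate 4. The untreated old bladders were at 0.479 to 1.65 CPM, and Apela differed there by -0.01 on the log2 scale (standard error 0.35, edgeR adjusted p = 0.982) from middle age and by 1.92 (standard error 0.39, adjusted p = 0.00257) from youth. The water-treated group was at 0.625 to 1.60 CPM, the vehicle-treated group at 0.829 to 1.73 CPM and the D + Q-treated group at 0.692 to 2.63 CPM. D + Q-treated and untreated old bladders differed in Apela by a log2 fold change of 0.66 (95% interval -0.09 to 1.41, edgeR adjusted p = 0.435). Per length, Apela stood at 0.951 ± 0.321 TPM (SD, n = 6) in youth and at 3.44 ± 1.82 TPM (SD, n = 6) in untreated old age, the latter beside 3.87 TPM of Apln.

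The level of Aplnr, a vessel marker, was also set beside transcripts found in all endothelial cells. Of 22 such markers, 4 passed in edgeR between untreated old and middle-aged bladders, where 24.0% of all genes passed in edgeR. In limma on log2(TPM + 1) 8 of the markers passed. Over the alternative settings, limma among them, 2519 to 4492 of all genes passed, beside 4110 in edgeR. Cldn5, a tight junction protein of endothelium, fell by 0.46 on the log2 scale (standard error 0.08, edgeR adjusted p = 9.53e-04). Tie1, a receptor kinase of endothelial cells, and Cdh5, the adhesion molecule VE-cadherin, fell as well, with log2 fold changes of -0.20 and -0.19, while the adhesion molecule Icam2 was higher (0.38). The median log2 fold change of the 22 was -0.11, beside -0.0047 over all genes tested, and the lowest value among them was -0.46. Their summed level was 988 to 1096 CPM in middle-aged and 937 to 1028 CPM in untreated old bladders, ranges that overlap. In young bladders it was 1078 to 1213 CPM, above all untreated old bladders, and 11 of the 22 markers were lower and 1 higher in untreated old than in young bladders (median -0.18), where 25.1% of all genes passed. Aplnr minus the mean log2 level of these markers was -1.65 ± 0.149 (SD, n = 5) at middle age and -2.74 ± 0.343 (SD, n = 6) at untreated old age, a log2 difference of -1.10 against -1.20 for Aplnr itself. In young bladders it was -1.70 ± 0.294 (SD, n = 6). Since Aplnr was chosen for its difference between these ages, nothing is read from these values about the number of endothelial cells. Among old groups, relative Aplnr differed by -0.18 between D + Q-treated and untreated bladders (exact permutation p = 0.323, adjusted p = 0.546 over 17 tests) and by -0.17 between all 15 gavaged and the untreated bladders (p = 0.321, adjusted p = 0.546). Relative Apln was 0.35 higher in D + Q-treated than in untreated old bladders, which did not hold after adjustment (exact permutation p = 0.0130, adjusted p = 0.221), and it differed by -0.23 between untreated old and middle-aged bladders (exact permutation p = 0.147, adjusted p = 0.546).

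**Figure D3:**
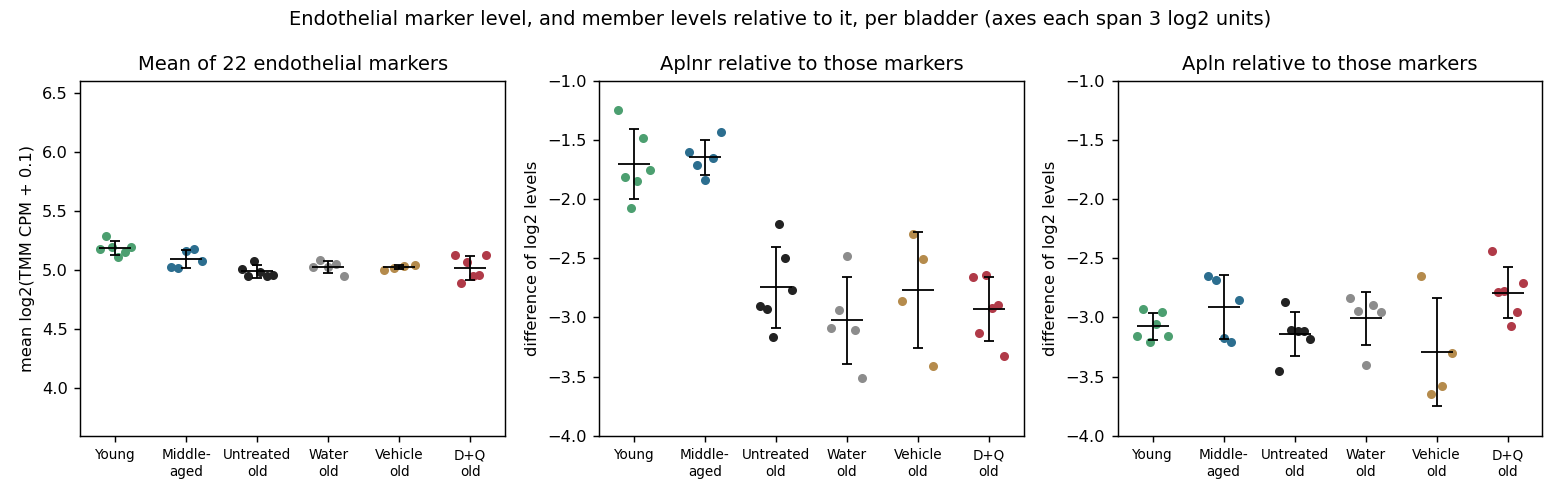
Mean log2(TMM CPM + 0.1) of 22 endothelial markers (left), and Aplnr (middle) and Apln (right) minus that mean, per bladder, with group mean and SD. The 3 axes span the same number of log2 units, and the marker mean is 5.19 in young, 5.09 in middle-aged and 4.99 in untreated old bladders. Aplnr was chosen for its difference between these ages.

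Markers of vessel types did not share one direction. In the step from middle age to untreated old age, 4 of 9 venous markers were higher (13% of all genes were) and none was lower (11.0% of all genes were). They were Lrg1 (log2 fold change 0.98), Vcam1 (0.72), Ackr1 (0.34) and Vwf (0.32). Of 8 capillary markers other than Aplnr, Rgcc (0.73) and Cd36 (0.33) were higher. Of 12 arterial markers, Sox17 (-0.23), Sema3g (-0.19), Unc5b (-0.18) and Efnb2 (-0.14) were lower. Of 11 tip cell markers other than Apln, Cxcr4 (1.67), Esm1 (0.78), Adm (0.34) and Plaur (0.28) were higher and Angpt2 (-0.44) was lower. Of 7 lymphatic markers tested, Lyve1 (0.70), Mmrn1 (0.45), Pdpn (0.39) and Thy1 (0.16) were higher. Without a single middle-aged bladder the numbers that passed went down to 0 of the arterial (without replicate 5), 1 of the capillary (replicate 1), 3 of the tip cell (replicate 3) and 2 of the lymphatic markers (replicate 1). Of all genes, 3391 to 4097 passed with single bladders left out, beside 4110 with all bladders. Cxcr4, Vcam1, Lyve1 and Thy1 are also made by immune cells, stroma or nerve. Over the same interval all 6 B cell and all 6 T cell markers were higher, with medians of 4.28 and 2.48 on the log2 scale, and 5 of 6 macrophage markers were higher. The summed B cell markers went from 5.66 to 12.8 CPM at middle age to 73.0 to 216 CPM in untreated old bladders. The part of this change in cell content in the level of Aplnr was not tested. In the remaining lists 1 of 9 pericyte markers was higher. Lower were 4 of 10 smooth muscle, 5 of 11 urothelial, 1 of 8 fibroblast and 1 of 8 adipocyte markers. Of 7 skeletal muscle markers 2 were higher and 1 was lower, and 0 of 4 mesothelial markers passed in edgeR. At an unadjusted p under 0.05 stood 0 of the mesothelial markers, beside 6144 of all 17156 genes tested. With single middle-aged bladders left out, the numbers that passed were 2 for macrophages (without replicate 3), 0 for pericytes and adipocytes (replicate 3), 2 for smooth muscle (replicate 4), 3 for urothelium (replicate 1), 2 for fibroblasts (replicate 2) and 1 for mesothelium (replicate 4).

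In the list of apelin processing and breakdown, 2 convertases differed between young and middle-aged bladders, where 10.8% of all genes passed. None of its genes tested passed between middle-aged and untreated old bladders, where 24.0% of all genes did. Of 7 genes for processing and breakdown, 6 had enough counts, and Klkb1, the gene of plasma kallikrein, did not. Furin, Pcsk5, Pcsk6 and Pcsk7 encode proprotein convertases, and Mme encodes neprilysin, a peptidase that breaks apelin down. Whether Pcsk5, Pcsk6 or Pcsk7 cut apelin in the bladder was not tested. From young to middle-aged bladders Pcsk5 fell by 0.83 on the log2 scale (standard error 0.19, edgeR adjusted p = 0.0158), from 14.9 ± 4.50 CPM (SD, n = 6) to 8.47 ± 0.332 CPM (SD, n = 5), and Pcsk6 was higher (0.24, standard error 0.07, adjusted p = 0.0437). Without young replicate 1, 1 gene of the list passed. Of all genes, 728 to 2794 passed in this comparison with single bladders left out. From middle-aged to untreated old bladders none of the 6 passed in edgeR, and DESeq2 called 0. An unadjusted p under 0.05 was held by 1 of them, Pcsk5 (log2 fold change 0.18, edgeR adjusted p = 0.119), and by 6144 of all 17156 genes tested. Furin was at -0.01, Pcsk6 at 0.03 and Pcsk7 at 0.02. Mme had the largest value of the 6, at 0.65, with a standard error of 0.32 (adjusted p = 0.166).

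The genes through which the receptor signals gave small changes in both directions. The list of 29 holds G protein subunits, arrestins, kinases and endothelial targets. Between untreated old and middle-aged bladders 5 were higher and 3 lower, that is 8 of 29 where 24.0% of all genes passed, and the list's median log2 fold change was 0.01. The higher genes were Pik3cg, a phosphoinositide kinase subunit (0.57, standard error 0.10), Arrb2, the gene of beta-arrestin 2 (0.50, standard error 0.10), Grk2, a kinase that desensitizes such receptors (0.25, standard error 0.04), Hdac4 (0.17) and Gna13 (0.13). Pik3cg and Arrb2 are abundant in leukocytes. The lower genes were Hdac5, a histone deacetylase that apelin signaling moves out of the nucleus (-0.26, standard error 0.04), Sphk2 (-0.15) and Plcb3 (-0.12). The inhibitory G protein subunits Gnai1, Gnai2 and Gnai3 had log2 fold changes of 0.03, -0.02 and 0.04, and Nos3, endothelial nitric oxide synthase, of -0.12, none of which passed. From young to middle-aged bladders 4 of the 29 passed, and 1 without middle-aged replicate 1. Of all genes, 1811 passed there, and 728 to 2794 with single bladders left out. Sphk1 (-0.43), Nos3 (-0.32) and Gnaq (-0.21) were lower, against 5.85% of all genes, and Hdac5 (0.32) was higher, against 4.96% of all genes.

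**Figure D4:**
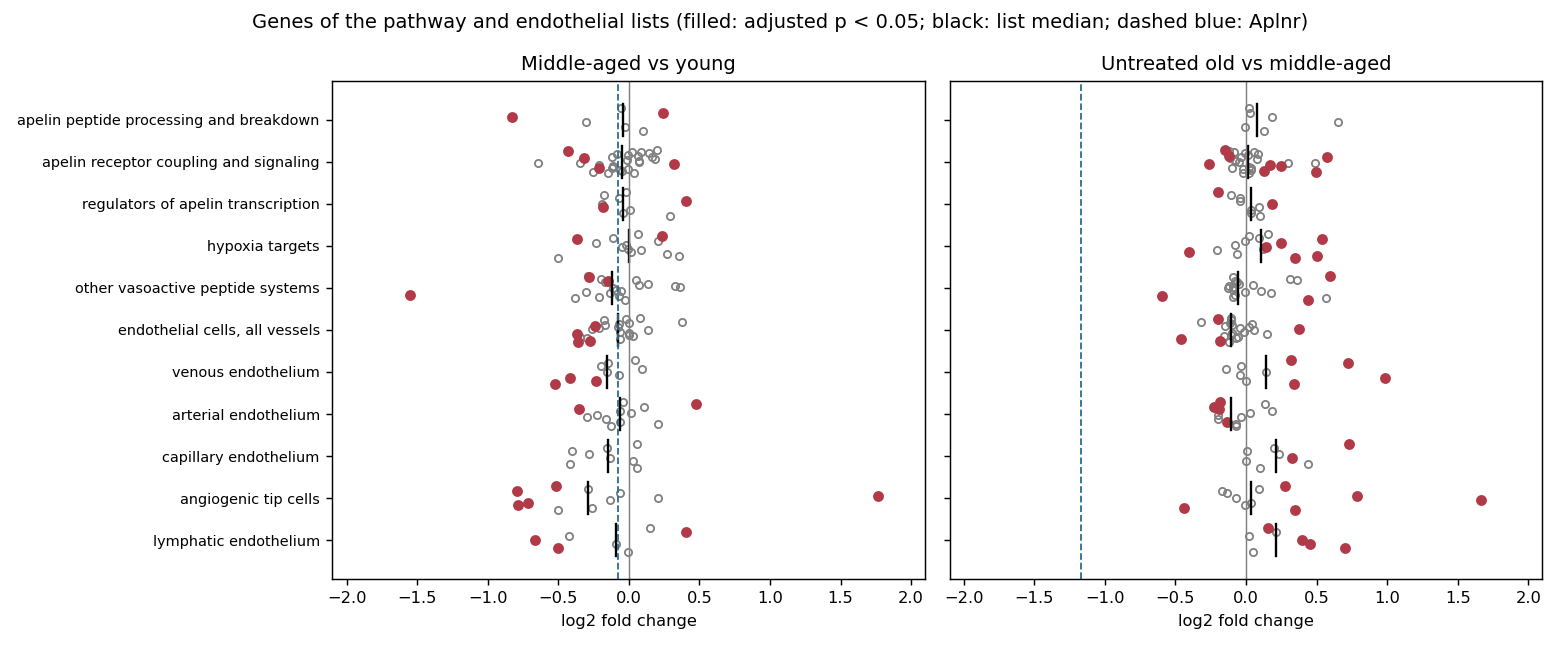
Log2 fold change of each gene of the pathway and endothelial lists between middle-aged and young (left) and between untreated old and middle-aged bladders (right). Filled points passed an adjusted p of 0.05, black bars are list medians and the dashed line is Aplnr, at -1.17 in the right panel, the difference it was chosen for.

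Among regulators of apelin, hypoxia targets and other vasoactive peptides, single genes changed in either direction, where 24.0% of all genes passed between untreated old and middle-aged bladders (13% higher and 11.0% lower) and 10.8% between middle-aged and young bladders. These lists held 2 of 9, 6 of 14 and 3 of 20 genes that passed in the first of these comparisons. Of 9 regulators of Apln transcription, Hif1a, the oxygen-sensing factor, was higher at untreated old age than at middle age (0.18, standard error 0.04) and Tie1 was lower. Between young and middle age Notch1 was higher (0.41) and Foxo1 lower (-0.18), and without young replicate 2 the list held 1 gene that passed. Of 14 targets of hypoxia, Pfkfb3 (0.53), Ankrd37 (0.50), Adm (0.34), P4ha1 (0.25) and Ldha (0.14) were higher and Car9 (-0.40) was lower in untreated old bladders, with a list median of 0.10, and 1 gene of the list passed without middle-aged replicate 5. At middle age against youth Slc2a1 (0.23) was higher and Pfkfb3 (-0.37) lower, and 0 of the list passed in edgeR without middle-aged replicate 1. Of 20 tested genes of other vasoactive peptide systems, Ramp3 (0.60) and Ace (0.44) were higher and Agtr1b, which encodes an angiotensin receptor, was lower (-0.60) at untreated old age against middle age. Agtr2, which encodes another angiotensin receptor, went from 3.19 ± 1.22 CPM (SD, n = 6) in young to 1.11 ± 0.187 CPM (SD, n = 5) in middle-aged bladders, which was a fall by 1.55 on the log2 scale (standard error 0.29, edgeR adjusted p = 0.00670), and Ramp2 (-0.29) and Npr2 (-0.15) were lower as well. The list held 1 gene that passed without young replicate 6 and 5 without young replicate 4. With single bladders left out, 3391 to 4097 of all genes passed between untreated old and middle-aged bladders. Between middle-aged and young bladders 728 to 2794 did.

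In the comparisons among old bladders the 6 pathway lists and the vessel type lists held no gene that passed in edgeR. In the other cell type lists 1 gene passed, the urothelial keratin Krt18, which was higher after water (0.28, standard error 0.05, edgeR adjusted p = 0.0280). For D + Q against untreated old bladders, 2200 of all 17037 genes tested had an unadjusted p under 0.05. In this comparison the median log2 fold change was -0.03 over the 29 signaling genes, of which 2 had an unadjusted p under 0.05. The median was 0.0063 over the 22 endothelial markers, of which 1 had. Over the 14 hypoxia targets it was 0.11, with 4 of them at an unadjusted p under 0.05. B cell markers had a median of -0.73, with 4 of 6 at an unadjusted p under 0.05, and T cell markers of -0.58, with 5 of 6, and their part in the Apln values of the same bladders was not tested.

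The genes whose levels were most like that of Aplnr over all 32 bladders were Susd5 (Pearson r = 0.89), D430019H16Rik (0.88), Galr2 (0.87), Dgkb (0.87) and Gm32817 (0.87), among 15054 genes with a mean of at least 1 CPM. Galr2, a receptor of the neuropeptide galanin, stood at a mean of 9.22 CPM at middle age (n = 5) and 4.93 CPM at untreated old age (n = 6). The most opposite genes were Mmp3 (-0.87), Nell2 (-0.86), Rims2 (-0.85), Slpi (-0.85) and Fmo1 (-0.85). These values rest on the split between younger and old bladders, since over the 21 old bladders the correlations were 0.36 to 0.74 for the most alike and -0.42 to -0.04 for the most opposite genes. After the group means were removed, Cdk14 (0.70), C030034I22Rik (0.70) and Naalad2 (0.67) were the most alike and Sco2 (-0.69) and Apod (-0.62) the most opposite. Aplnr and the mean of the endothelial markers had r = 0.65 over all bladders and 0.17 within groups, and Aplnr and Apln had r = 0.15 and -0.15. With Aplnr, the lower and upper 2.5% of genes lay beyond -0.67 and 0.69 over all bladders and beyond -0.38 and 0.42 within groups. None of these values for the endothelial mean and Apln stood outside that spread.

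Apln had no close match over all bladders. The highest correlations were 0.60 for Zranb1 and Dach1, and the lowest were -0.66 for Ttc39a and -0.65 for Orai2. Within groups, Prkg1 (0.66), the mast cell proteases Tpsb2 (0.66) and Cma1 (0.59), Zfp277 (0.65) and Peg3 (0.62) varied most alike. Tpsb2 and Cma1 were each at a mean of 2.37 CPM in the young bladders. In the other groups their means were 0.629 to 1.165 CPM and 0.446 to 1.06 CPM. These proteases reached the limit of 1 CPM through the young group, so nothing is read from their correlations for the other bladders. The immunoglobulin segments Ighv1-54 (-0.73) and Igkv6-20 (-0.72) with Mafa (-0.72) varied most oppositely. Both segments were at 0 CPM in the young bladders, with means of 0.029 and 1.12 CPM at middle age. They reached the limit of 1 CPM through the old groups, so nothing is read from their correlations for the younger bladders. The bladders of a correlation share groups and normalization, and these values are descriptions with no test.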

How the data were processed

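Bulk RNA sequencing of 32 bladders was analysed by the groups in the labels. The authors aligned reads to mm10 with STAR 2.7.3 per the labels, counted them per gene with featureCounts of Subread, and deposited raw counts with each gene's summed exon length as the other unit. The deposited table named TPM is on a log2 scale, made from counts plus 1 divided by length, and its values sum to 100000 per bladder on the linear scale, and multiplied by 10 these are TPM. The strandedness of counting is not given in the sources used here.

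Each of 9 comparisons was fitted on its 2 groups with edgeR 4.0.16 in R 4.3.3 (TMM, filterByExpr, quasi-likelihood test, Benjamini-Hochberg adjusted p under 0.05 over all genes tested). Two-sided exact permutation tests used log2(CPM + 0.1), in Python 3.11.15 with scipy 1.17.1. No pair of bladders in a group had identical counts. The labels do not say how animals were housed or processed. The p-values set group differences against the spread between these bladders and take the bladders as independent, which could not be checked. The fits were tested on simulated data. Positions and the Apln coding sequence were read from the GENCODE annotation and transcripts for mm10.

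The members and gene lists were chosen with earlier results of these data known. Named genes are Aplnr, Apln and Apela, per list and comparison up to 3 rises and 3 falls among genes that passed, genes of the processing and signaling lists (1 gene is counted but not reported here), and the genes with the 5 highest and 5 lowest correlations with Aplnr and Apln. Further genes (Gna13, Vwf, Efnb2, Plaur, Thy1, P4ha1, Ldha) were named after their values were seen, to complete short lists. Alternatives were upper quartile normalization, DESeq2 1.42.0, the likelihood ratio test, other filters, all 6 groups together, a replicate block, limma 3.58.1 on log2(TPM + 1) and log2(TPM + 0.1), pseudocounts of 1 and 0.01 CPM, CPM without TMM factors, Pecam1 and Cdh5 alone as the endothelial reference, and each bladder left out.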

Additional observations from a re-analysis of the deposited data

Results flagged for a closer look

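Of 18 groups of 4 to 6 bladders (Aplnr, Apln and Apela in each of 6 groups), 1 held a bladder far from the others. Middle-aged replicate 4 had 0.509 CPM of Apela, from 18 counts, below the 1.08 to 1.24 CPM of the other 4 middle-aged bladders. Its gap to them was larger than Dixon's 95% limit for 5 values, which chance exceeds in about 1 of 20 groups. The same bladder had the lowest Apln of its group, at 3.82 CPM, and an Aplnr level of 11.4 CPM within the range of the others.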

How the results depend on the processing

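Aplnr kept its direction and size between ages in every alternative run (untreated old minus middle-aged between -1.29 and -1.07 on the log2 scale), except that middle-aged minus young, near 0 throughout, was 0.02 without young replicate 1. Aplnr was chosen from these bladders for that late fall, so its stability is a description and lends the fall no support. No alternative gave an adjusted p under 0.05 for Aplnr or Apln between old groups. Apln from middle age to untreated old age passed in DESeq2 (-0.31), and its value lay between -0.38 and -0.26 with single bladders left out. The other reversals concerned differences that were close to 0. For Aplnr, vehicle minus untreated turned negative with limma on log2(TPM + 1) (-0.0052) and log2(TPM + 0.1) (-0.0127), and its difference of log2 CPM without TMM factors (-0.0077). With single bladders left out it ran from -0.14 to 0.20, the log2 CPM difference from -0.14 to 0.22, and the difference relative to endothelial markers from -0.18 to 0.19. For D + Q minus water these ranges were -0.0428 to 0.24, -0.0511 to 0.22 and -0.0253 to 0.23. Apln ranged from -0.34 to 0.0351 (log2 CPM difference -0.33 to 0.0017) for vehicle minus untreated and from -0.0417 to 0.12 for D + Q minus middle-aged, and relative to Pecam1 and Cdh5 alone it was 0.18 for untreated old minus young. Apela, untreated old minus middle-aged, was 0.0572 with a replicate block and -0.22 to 0.12 with single bladders left out. The cause of these changes was not tested.

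The labels do not say what the replicate numbers of the sample titles mean. Deviations of same-numbered bladders of different groups had a median correlation of -0.01 (15 of 73 pairs over 0.1, range -0.37 to 0.26). Between bladders with other numbers, 82 of 352 pairs were over 0.1 (range -0.64 to 0.48). These values gave no sign that the numbers pair the bladders, but they cannot exclude it. The column names number 6 bladders differently, and with those numbers the median was 0.01 (17 of 72 pairs over 0.1). With the titles' numbers as a block, 716 genes in place of 1811 passed between middle-aged and young bladders, 0 between water-treated and untreated old bladders, 0 of the peptide processing and 1 of the signaling genes between middle-aged and young bladders, and no call of Apela was lost. In a single fit of all 6 groups the number of genes that passed was 2519 between untreated old and middle-aged and 2858 between middle-aged and young bladders. Between water-treated and untreated old bladders it was 703 in DESeq2 and 99 with no filter on low counts. Depth limits Apela most, at 4 to 11 counts in the young bladders.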
